A study of Mus musculus with 8 samples.

Results

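The 7 genes of lymphocyte egress and homing described here were followed across every library of the series. They were S1pr1, S1pr4, Ccr7, Cxcr4, Cd69, Cd55 and Rasgrp2, a list of genes linked to the transcription factor KLF2, taken by gene symbol. All 7 were found among the 25124 genes of the table, and all 7 were among the 19146 that passed the filter on low counts. RNA was sequenced from spleen CD4 T cells of mice with dual reporters, in which GFP reports KLF2 and RFP reports FOXP3, the factor of regulatory T cells. Every group came from FOXP3-negative CD44hi cells, which are antigen-experienced conventional CD4 T cells, sorted by the reporter as KLF2+ or KLF2-. The groups were KLF2+ stimulated, KLF2+ unstimulated, KLF2- stimulated and KLF2- unstimulated, with 2 libraries each. Stimulated cells received 2.5 µg/mL anti-CD3 and 1.25 µg/mL anti-CD28, antibodies that engage the T cell receptor and its costimulatory receptor, and all cells were harvested at 48 h. The sort rested on the reporter at the time of sorting, and KLF2 could change afterwards in culture. Age, sex and number of mice, and whether the 2 libraries of a group came from separate mice or cultures, are not given in the sources used here. The p-values therefore measure the spread between these libraries, which may be technical.

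Lymphocytes leave lymphoid organs by following sphingosine 1-phosphate (S1P), which is abundant in blood and lymph and scarce in the tissue, through the receptor S1PR1. CD69, an early activation antigen, binds S1PR1 and removes it from the cell surface. CCR7 guides T cells into and within the T cell zones of lymph nodes and spleen, and CXCR4, the receptor for CXCL12, retains cells in bone marrow and other tissues. KLF2, which quiescent T cells express and which is lost after T cell receptor signals, is known to activate transcription of S1pr1. S1PR4 is a second S1P receptor of lymphocytes. CD55 is a membrane regulator that speeds the decay of complement convertases and binds the adhesion receptor CD97. RASGRP2, also called CalDAG-GEFI, is a calcium-responsive activator of the small GTPase Rap1, which turns on integrins.

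In the table's mm10 coordinates, S1pr1 (NM_007901) lay at chr3:115710433-115715055 on the minus strand, S1pr4 (NM_010102) at chr10:81497745-81500137 on the minus strand and Ccr7 (NM_007719) at chr11:99144199-99155077 on the minus strand. Cxcr4 (NM_001356509) lay at chr1:128588199-128592299, Cd69 (NM_001033122) at chr6:129267324-129275369 and Cd55 (NM_010016) at chr1:130439026-130462744, all on the minus strand. Rasgrp2 (NM_011242) lay at chr19:6400541-6415216 on the plus strand. Reads were counted over the exons of these genes. The table of promoters, from RefSeq on GRCm38.p6, matched 4 of the 7 genes by symbol, S1pr4, Cxcr4, Cd55 and Rasgrp2. The promoters of Cd55 and Cxcr4 are shown because these genes had the highest and the lowest log2 fold change among the 7 between unstimulated KLF2+ and KLF2- cells. Each runs from 250 bases before to 50 bases after the start of transcription, and capitals mark the letters CACCC, a box read by KLF factors, and GGGCGG, a GC box read by SP and KLF factors, on either strand, so that GGGTG and CCGCCC are their reverse complements.
Cd55 (chr1:130462695-130462994, minus strand): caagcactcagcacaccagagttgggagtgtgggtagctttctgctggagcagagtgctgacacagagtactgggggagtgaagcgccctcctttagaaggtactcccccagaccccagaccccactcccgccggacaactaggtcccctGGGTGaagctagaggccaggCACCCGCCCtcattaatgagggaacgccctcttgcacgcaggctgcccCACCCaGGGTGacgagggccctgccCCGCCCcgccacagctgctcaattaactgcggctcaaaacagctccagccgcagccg
Cxcr4 (chr1:128592250-128592549, minus strand): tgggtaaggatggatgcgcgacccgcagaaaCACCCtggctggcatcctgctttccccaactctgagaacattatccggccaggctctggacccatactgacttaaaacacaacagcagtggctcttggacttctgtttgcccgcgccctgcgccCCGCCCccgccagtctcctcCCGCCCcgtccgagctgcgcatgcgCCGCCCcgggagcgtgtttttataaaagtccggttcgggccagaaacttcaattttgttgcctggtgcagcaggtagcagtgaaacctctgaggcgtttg
The Cd55 promoter held 4 matches to the CACCC box and 2 to the GC box, and in 1 place the matches of both overlapped. The Cxcr4 promoter held 1 match to the CACCC box and 3 to the GC box. In the S1pr4 promoter there was 1 CACCC box and no GC box. Rasgrp2 had 2 listed starts, 666 and 1164 bases from the start of the gene given above. The first held 3 CACCC and 6 GC boxes, and the second 1 CACCC and 2 GC boxes. Of the 32851 promoters in the table, 57.5% held a CACCC box and 35.7% a GC box. TGTTTAC, a forkhead motif of FOXO factors, occurred in 3.65% of promoters and in none of the 4 matched genes. These are matches of letters and not measured binding sites.

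The libraries differed in depth and in background. Reads on exons made up 7.96% to 80.3% of the mapped tags of a library, and their number ran between 2987038 in KLF2- stimulated 4 and 36620465 in KLF2+ stimulated 2. Reads at olfactory and vomeronasal receptor genes, which T cells do not use, gave an expected background of 0.402% to 1.25% of exon reads in KLF2+ stimulated libraries, against 2.62% to 7.08% in KLF2+ unstimulated ones. That share was 11.4% to 20.2% in KLF2- stimulated libraries, against 7.12% to 7.83% in KLF2- unstimulated ones. All 14 T cell identity genes measured had reads in every library. Scaling moved the median of all genes. With TMM scaling over all genes the median log2 difference between stimulated KLF2+ and stimulated KLF2- cells was -0.19, and with TMM factors computed on genes of 50 CPM or more (counts scaled to a common library size), called abundant-gene scaling below, it was -1.37. In the same order of scalings the median was -0.11 and -0.33 for KLF2+ over KLF2- without stimulation, and -0.25 and -0.76 for the KLF2+ response. Values below are CPM with TMM factors over all genes unless TPM is named. TPM divides the reads by transcript length and carries no TMM factor. Length is the same for a gene in every library, so its TPM and CPM differ between libraries by the scaling and not by length.

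Klf2, the gene of the reporter, followed the sort without stimulation, and with stimulation its order depended on the scale. It had 303 and 379 CPM in unstimulated KLF2+ libraries, against 41.0 and 65.0 CPM in unstimulated KLF2- libraries. With stimulation it had 93.5 and 139 CPM in KLF2+ libraries, against 46.6 and 75.7 CPM in KLF2- libraries. Klf2 RNA thus separated the populations in both conditions on this scale, by a log2 fold change of 2.69 ± 0.33 (SE) without stimulation and 0.93 ± 0.32 with it. In TPM the stimulated populations overlapped and the order of their means was reversed, at 40.8 in KLF2+ and 59.9 in KLF2- libraries. The 4 groups are shown with every library in the plot of levels for the 7 genes and Klf2.

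**Figure D1:**
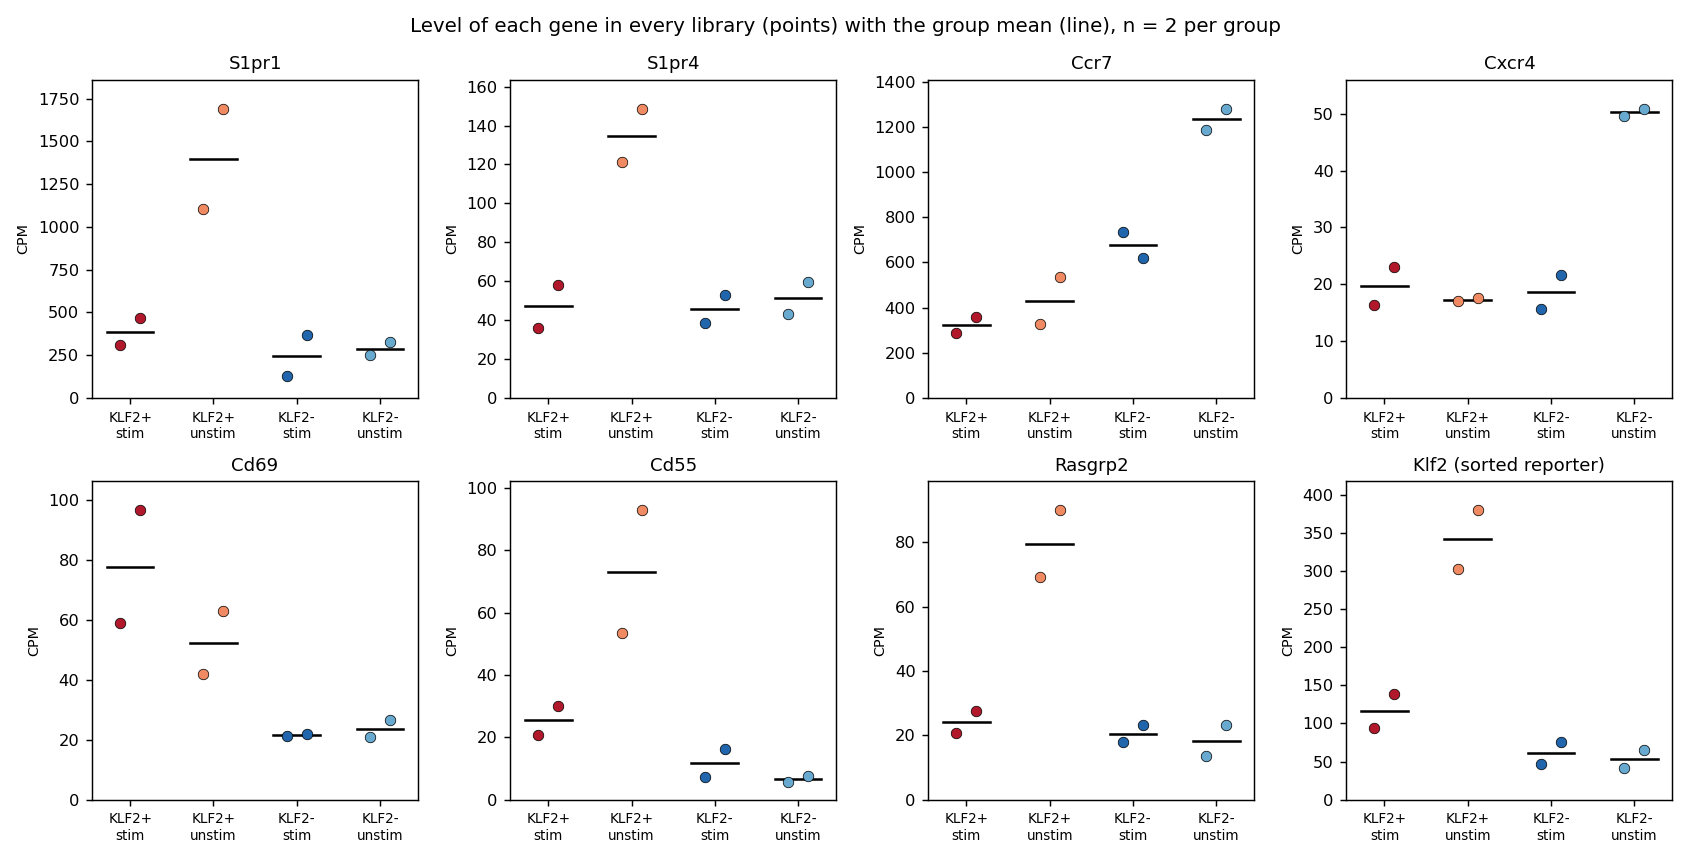
Level of each of the 7 genes and of Klf2 in CPM (vertical axis, from 0) in every library, with points for the 2 libraries of a group and a line for their mean. S1pr1, S1pr4, Cd55 and Rasgrp2 peak in KLF2+ unstimulated cells, Ccr7 and Cxcr4 in KLF2- unstimulated cells, and Cd69 is higher in all KLF2+ than in all KLF2- libraries.

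Without stimulation, the S1P receptors, Cd55 and Rasgrp2 were higher and both chemokine receptors lower in KLF2+ cells than in KLF2- cells. Of the 7 genes, 6 passed an adjusted p under 0.05 in edgeR, 4 of them higher and 2 lower in KLF2+ cells. Across all genes tested, 2.32% passed in this comparison, 1.07% higher and 1.25% lower. The median log2 fold change of the 7 genes was 1.39, against -0.11 over all genes tested.

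Among the S1P receptors, S1pr1 had 1103 and 1691 CPM in unstimulated KLF2+ libraries, against 253 and 326 CPM in KLF2- libraries. Both KLF2+ libraries stood above both KLF2- libraries, by a log2 fold change of 2.27 ± 0.47 (SE; adjusted p = 0.0368), which is 4.83-fold. S1pr4 had 121 and 149 CPM in KLF2+ libraries, against 43.4 and 59.5 CPM in KLF2- libraries. Its log2 fold change was 1.39 ± 0.28 (adjusted p = 0.0359), smaller than that of S1pr1, and the libraries again did not overlap. Neither S1P receptor passed the threshold under abundant-gene scaling, where their log2 fold changes were 2.01 for S1pr1 and 1.15 for S1pr4. Both also fell short after correction for the expected background (1.94 and 1.11) and in the 3 TPM fits.

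The chemokine receptors ran the other way. Ccr7 had 329 and 534 CPM in unstimulated KLF2+ libraries, against 1185 and 1280 CPM in KLF2- libraries. Its log2 fold change was -1.51 ± 0.29 (adjusted p = 0.0261), so that KLF2+ cells had 0.35 of the KLF2- level. Cxcr4 had 17.0 and 17.5 CPM in KLF2+ libraries, against 49.6 and 50.9 CPM in KLF2- libraries. The 2 libraries of each group lay close together for Cxcr4, and its log2 fold change was -1.54 ± 0.26 (adjusted p = 0.0155). Both receptors also passed under abundant-gene scaling, after correction for the expected background, and in TPM. Mature dendritic cells also carry CCR7, and the summed level of 8 dendritic cell markers was 65.7 and 63.1 CPM in unstimulated KLF2+ libraries, against 140 and 162 CPM in unstimulated KLF2- libraries, with none at 0. Its part in the Ccr7 values was not tested.

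Cd55 had the largest log2 fold change of the 7. It had 53.3 and 92.7 CPM in unstimulated KLF2+ libraries, against 5.69 and 7.71 CPM in KLF2- libraries, a log2 fold change of 3.44 ± 0.43 (adjusted p = 0.00455) or 10.9-fold. The KLF2- values rest on few reads, and up to 43.5% of the Cd55 reads in a library (KLF2- unstimulated 3) were expected from background. After that background was subtracted, the log2 fold change was 3.68 and still passed. Cd55b, a near copy of Cd55 next to it on the chromosome with which reads could be shared, had between 8 and 29 reads in a library.

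Rasgrp2 had 69.1 and 90.0 CPM in unstimulated KLF2+ libraries, against 13.7 and 23.1 CPM in KLF2- libraries. Its log2 fold change was 2.11 ± 0.30 (adjusted p = 0.00848), and it passed under every scaling tried. Cd69 had 41.8 and 63.0 CPM in KLF2+ libraries, against 20.8 and 26.6 CPM in KLF2- libraries. The libraries did not overlap, but the log2 fold change of 1.15 ± 0.29 missed the threshold (adjusted p = 0.0867). Cd69 and S1pr1, the antagonist and its target, thus had their higher values in the same libraries.

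Markers of myeloid cells moved with this comparison. The summed level of 15 myeloid markers was 961 and 1720 CPM in unstimulated KLF2+ libraries, against 75.1 and 73.7 CPM in unstimulated KLF2- libraries, and Lyz2, lysozyme of macrophages and neutrophils, accounted for 705 and 1376 CPM of the KLF2+ sums. In these 4 libraries 1 of the 15 markers, S100a8, was at 0, in KLF2- unstimulated 3. The 12 B cell markers summed to 167 and 287 CPM in KLF2+ libraries, against 114 and 137 CPM in KLF2- libraries, and none was at 0. The part of these cells in the levels of the 7 genes was not tested, and in bulk RNA a change in the number of cells of a type cannot be told apart from a change in RNA per cell. All signs held in the 16 alternatives run, but the calls leaned on the scaling and on single libraries. With abundant-gene scaling, background correction or TPM, 4 of the 7 genes passed, Cd55 and Rasgrp2 higher and Cxcr4 and Ccr7 lower. Over all genes, abundant-gene scaling called 160 higher and 322 lower of 19146. None of the 7 genes passed without KLF2+ unstimulated 2 or without KLF2- unstimulated 3, and 2 passed, Cd55 and Rasgrp2, without KLF2- unstimulated 4. The count over all genes dropped in the same fits, to 11 higher and 22 lower of 20313 genes tested without KLF2+ unstimulated 2, to 15 higher and 54 lower of 20230 without KLF2- unstimulated 3, and to 20 higher and 43 lower of 20228 without KLF2- unstimulated 4.

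**Figure D2:**
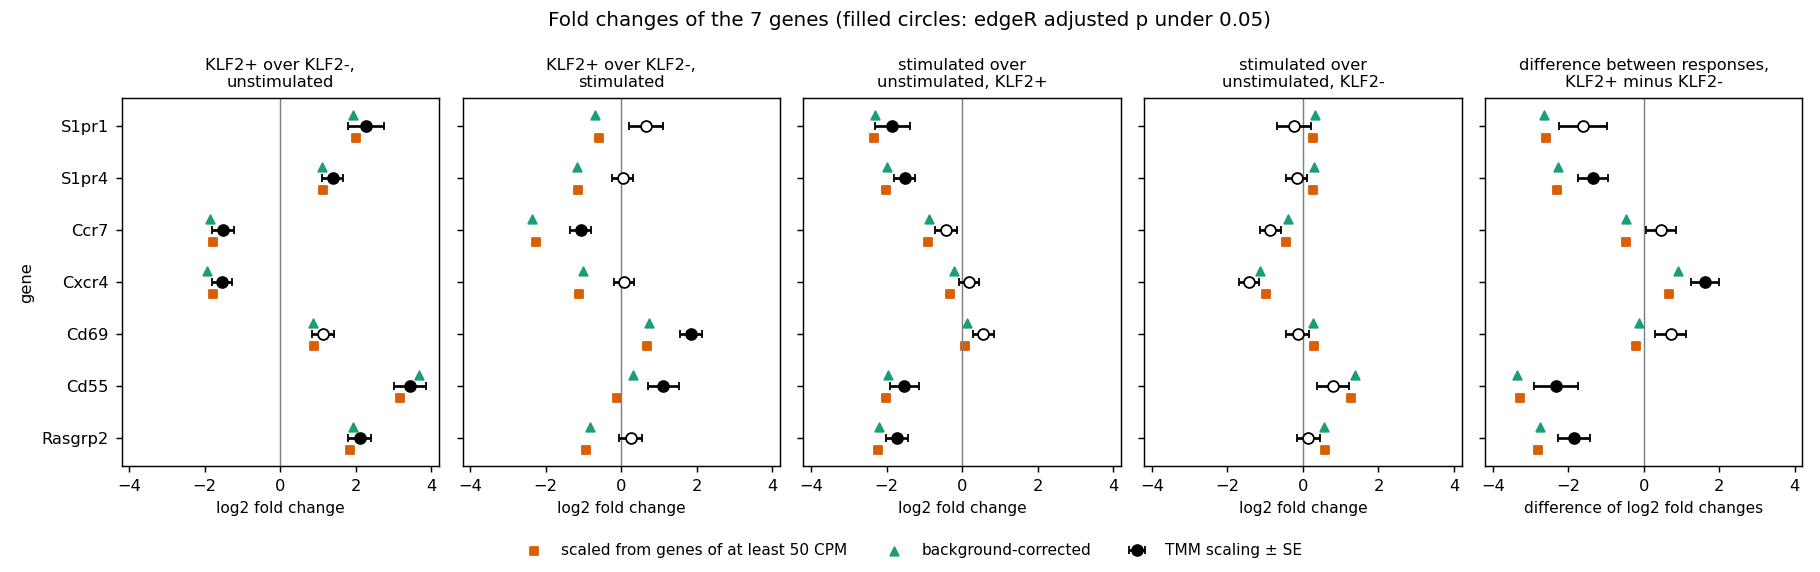
Log2 fold change (horizontal axis) of each of the 7 genes in the 4 comparisons between groups, and in the last panel the difference between the responses. Circles carry bars of 1 SE from the edgeR fit and are filled for genes past an adjusted p of 0.05. Squares give abundant-gene scaling and triangles the values after background correction. KLF2+ over KLF2- without stimulation spreads between -1.54 for Cxcr4 and 3.44 for Cd55, and the KLF2+ response is below -1.5 for S1pr1, S1pr4, Cd55 and Rasgrp2.

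With stimulation, 4 of the 7 genes fell in KLF2+ cells, S1pr1, S1pr4, Cd55 and Rasgrp2, and none rose. Across all genes tested, 37.1% passed in this comparison, 19.7% higher and 17.4% lower. This comparison shares the unstimulated KLF2+ libraries with the one above, so each is given by its own values. S1pr1 had 312 and 466 CPM in stimulated KLF2+ libraries, against 1103 and 1691 CPM in unstimulated ones, a log2 fold change of -1.85 ± 0.46 (adjusted p = 0.0157). S1pr4 had 36.1 and 58.0 CPM in stimulated libraries, against 121 and 149 CPM in unstimulated ones, a log2 fold change of -1.52 ± 0.28 (adjusted p = 0.00518). Both S1P receptors fell with no overlap between the groups.

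Cd55 had 20.7 and 30.1 CPM in stimulated KLF2+ libraries, against 53.3 and 92.7 CPM in unstimulated ones, and its log2 fold change was -1.52 ± 0.39 (adjusted p = 0.0165). Rasgrp2 had 20.8 and 27.6 CPM in stimulated libraries, against 69.1 and 90.0 CPM in unstimulated ones, and its log2 fold change was -1.71 ± 0.29 (adjusted p = 0.00385). Each stimulated library was thus below each unstimulated one for these genes as well. S1pr4 and Rasgrp2 passed in all 17 alternatives run, and S1pr1 and Cd55 passed in 16 of 17, missing the threshold without KLF2+ unstimulated 2 (log2 -1.46 for S1pr1 and -1.03 for Cd55).

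The other 3 genes did not pass in KLF2+ cells. Ccr7 had 287 and 357 CPM in stimulated libraries, against 329 and 534 CPM in unstimulated ones (log2 -0.42 ± 0.28, adjusted p = 0.236). Ccr7 did pass as lower in the 3 TPM fits, with abundant-gene scaling and after background correction, with log2 values between -1.07 and -0.88. Cxcr4 had 16.4 and 23.0 CPM in stimulated libraries, against 17.0 and 17.5 CPM in unstimulated ones (log2 0.19 ± 0.26, adjusted p = 0.557), and its sign was negative under those scalings. Cd69, which T cells switch on within hours of activation, had 58.9 and 96.5 CPM at 48 h in stimulated libraries, against 41.8 and 63.0 CPM in unstimulated ones. Its log2 fold change of 0.57 ± 0.29 did not pass (adjusted p = 0.13), and in TPM it was -0.12, so no change in Cd69 was shown at this time. The myeloid marker sum was 174 and 229 CPM in stimulated KLF2+ libraries, against 961 and 1720 CPM in unstimulated ones, a drop alongside the 4 genes that fell. Of its 15 markers, 13 were called lower and 1 higher. Cebpb ran against the sum, with 114 and 132 CPM in stimulated libraries, against 29.1 and 43.2 CPM in unstimulated ones. The part of these markers in the 4 genes was not tested.

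In KLF2- cells none of the 7 genes passed for stimulated against unstimulated, and among all genes the share was 0.0%. edgeR called 0 genes, although 2802 had an unadjusted p under 0.05, and DESeq2 called 40 higher and 27 lower. With the replicate number added to the edgeR fit as a block, 311 genes were called higher and 459 lower. Cxcr4 had the largest change of the 7, with 15.7 and 21.7 CPM in stimulated KLF2- libraries, against 49.6 and 50.9 CPM in unstimulated ones. Its log2 fold change was -1.43 ± 0.27, with an adjusted p of 0.268 in edgeR, and the libraries did not overlap. DESeq2 called it lower. Ccr7 had 734 and 620 CPM in stimulated KLF2- libraries, against 1185 and 1280 CPM in unstimulated ones, also without overlap, at a log2 fold change of -0.87 ± 0.28 (adjusted p = 0.273).

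S1pr1 was spread widely between the stimulated KLF2- libraries. It had 128 and 366 CPM in stimulated KLF2- libraries, against 253 and 326 CPM in unstimulated ones (log2 -0.23 ± 0.45). Its log2 value was -1.18 without KLF2- stimulated 4, the shallowest library, and 0.29 without KLF2- stimulated 3. S1pr4 had 38.6 and 53.2 CPM in stimulated KLF2- libraries, against 43.4 and 59.5 CPM in unstimulated ones, and Rasgrp2 had 17.9 and 23.1 CPM in stimulated KLF2- libraries, against 13.7 and 23.1 CPM in unstimulated ones. Cd55 had 7.42 and 16.3 CPM in stimulated KLF2- libraries, against 5.69 and 7.71 CPM in unstimulated ones (log2 0.80 ± 0.43, adjusted p = 0.395). Cd69 had 21.3 and 21.8 CPM in stimulated KLF2- libraries, against 20.8 and 26.6 CPM in unstimulated ones. For S1pr4, Rasgrp2, Cd55 and Cd69 the stimulated and unstimulated KLF2- libraries overlapped in CPM.

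Between the stimulated populations, 3 of the 7 genes passed, Cd69 and Cd55 higher and Ccr7 lower in KLF2+ cells, against 75.2% of all genes tested, 35.5% higher and 39.7% lower. A share of 3 in 7 is below that background. Ccr7 had 287 and 357 CPM in stimulated KLF2+ libraries, against 734 and 620 CPM in stimulated KLF2- libraries, a log2 fold change of -1.07 ± 0.28 (adjusted p = 0.00735). It kept this direction in all 16 alternatives and passed in 15, missing the threshold without KLF2+ stimulated 1 at log2 -0.88. The 8 dendritic cell markers summed to 51.4 and 44.3 CPM in stimulated KLF2+ libraries, against 128 and 170 CPM in stimulated KLF2- libraries, with Clec9a at 0 in KLF2+ stimulated 2. Of the 7 tested, 1 was called higher and 5 lower in KLF2+ cells (median log2 -2.55), and their part in the Ccr7 values was not tested.

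Cd69 had 58.9 and 96.5 CPM in stimulated KLF2+ libraries, against 21.3 and 21.8 CPM in stimulated KLF2- libraries (log2 1.85 ± 0.30, adjusted p = 0.000692). With abundant-gene scaling its log2 fold change was 0.67 and did not pass, and the TPM values overlapped. Cd55 had 20.7 and 30.1 CPM in KLF2+ libraries, against 7.42 and 16.3 CPM in KLF2- libraries (log2 1.12 ± 0.41, adjusted p = 0.0303), but the sign was negative in TPM and with abundant-gene scaling, where log2 was -0.10. Without KLF2- stimulated 3, Cd55 was at log2 0.70 and did not pass, and it did not pass without KLF2+ stimulated 2 either.

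The remaining genes overlapped between the stimulated populations in CPM. Their log2 fold changes were 0.66 ± 0.45 for S1pr1, 0.04 ± 0.28 for S1pr4, 0.08 ± 0.26 for Cxcr4 and 0.25 ± 0.30 for Rasgrp2, and none passed. With abundant-gene scaling, these 4 had the opposite sign, and S1pr4 (-1.15), Cxcr4 (-1.12) and Rasgrp2 (-0.94) passed as lower in KLF2+ cells. S1pr1 passed as higher, at log2 1.61, only when KLF2- stimulated 4 was left out. The stimulated KLF2- libraries had 4525898 and 2987038 exon reads, against 21030504 and 36620465 in stimulated KLF2+ libraries, and the part of this gap in these values was not tested. All 14 T cell identity genes tested were called higher in stimulated KLF2+ cells (median log2 1.35), but with abundant-gene scaling 5 were higher and 1 was lower.

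The response of the KLF2+ cells minus that of the KLF2- cells passed for 4 of the 7 genes, against 35.8% of all genes tested, 20.3% higher and 15.5% lower. Rasgrp2 (log2 -1.86 ± 0.42, adjusted p = 0.0197), Cd55 (-2.33 ± 0.58, adjusted p = 0.0221) and S1pr4 (-1.35 ± 0.40, adjusted p = 0.0318) had the lower response in KLF2+ cells. Cxcr4 differed in the other direction (1.62 ± 0.37, adjusted p = 0.0199), with a log2 response of 0.19 in KLF2+ cells and -1.43 in KLF2- cells. With abundant-gene scaling the Cxcr4 difference was 0.66 and did not pass. S1pr1, at -1.62 ± 0.63, missed the threshold (adjusted p = 0.0677). The difference was 0.44 ± 0.40 for Ccr7 and 0.71 ± 0.41 for Cd69, both short of the threshold and both negative under the TPM fits. None of the 7 passed without KLF2+ unstimulated 1, KLF2- unstimulated 3 or KLF2- unstimulated 4, and 2 passed, Cxcr4 and Rasgrp2, without KLF2- stimulated 4. Over all genes tested, 3890 were higher and 2965 lower in the full fit, against 332 and 81 of 20255 without KLF2+ unstimulated 1. Without KLF2- unstimulated 3 there were 67 higher and 7 lower of 20230, without KLF2- unstimulated 4 there were 64 and 6 of 20228, and without KLF2- stimulated 4 there were 2160 and 352 of 19530.

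On a scale that allows genes to be compared, S1pr1 and Ccr7 were the most abundant of the 7. In TPM, S1pr1 was at 66.0 and 97.5 in KLF2+ stimulated, 438 and 488 in KLF2+ unstimulated, 66.6 and 229 in KLF2- stimulated and 112 and 140 in KLF2- unstimulated libraries. Ccr7 was at 93.4 and 115 TPM in KLF2+ stimulated, 200 and 237 in KLF2+ unstimulated, 586 and 597 in KLF2- stimulated and 804 and 843 in KLF2- unstimulated libraries. The 4 groups thus did not overlap in Ccr7 TPM, with KLF2- unstimulated highest and KLF2+ stimulated lowest, whereas in CPM the 2 KLF2+ groups overlapped. For S1pr1, S1pr4, Cd55 and Rasgrp2, KLF2+ unstimulated was the highest group on both scales with no overlap with the next, but the order of the other 3 groups changed with the scale. At the low end, Cd55 was at 3.02 and 3.97 TPM in KLF2- unstimulated libraries.

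Ratios between genes within a library do not depend on its scaling factor. The TPM ratio of Ccr7, the homing receptor, to S1pr1, the egress receptor, was 0.457 and 0.485 in KLF2+ unstimulated libraries, against 7.21 and 6.03 in KLF2- unstimulated ones. With stimulation it was 1.42 and 1.18 in KLF2+ libraries, against 8.79 and 2.60 in KLF2- libraries. Every KLF2- library was therefore above every KLF2+ library for this ratio. The TPM ratio of S1pr1 to Cd69, its antagonist, was 2.82 and 2.58 in KLF2+ stimulated libraries, against 14.1 and 14.3 in KLF2+ unstimulated ones. In KLF2- cells it was 3.21 and 8.96 in stimulated libraries, against 6.48 and 6.53 in unstimulated ones, so the stimulated libraries lay on either side of the unstimulated ones. A ratio shows unequal change of 2 genes and not which of them changed.

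**Figure D3:**
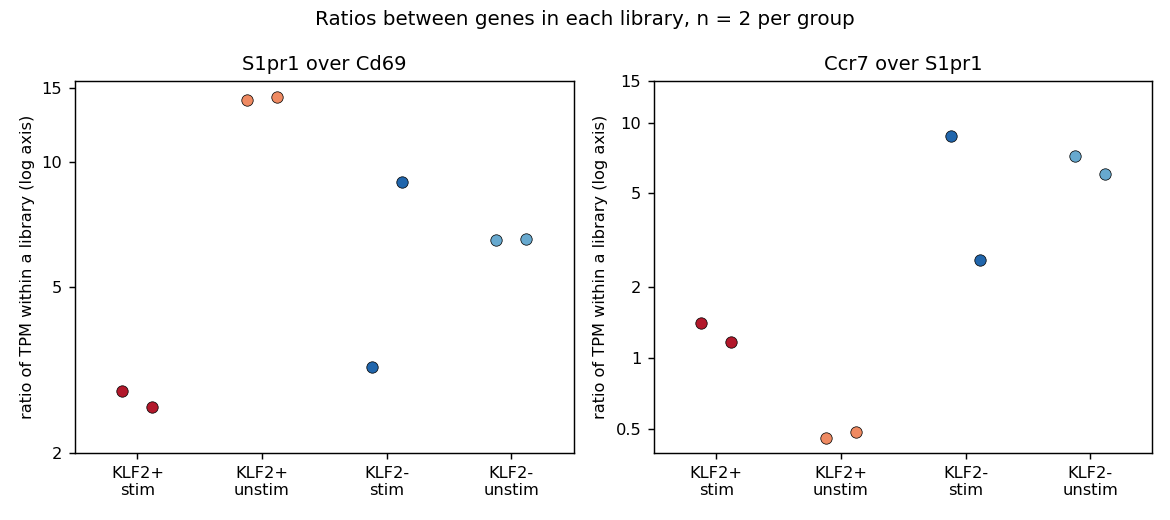
TPM ratios (vertical axis, log scale) of S1pr1 to Cd69 and of Ccr7 to S1pr1 in each of the 8 libraries, 1 point per library. The Ccr7 to S1pr1 ratio lies between 0.457 and 1.42 in KLF2+ libraries and between 2.60 and 8.79 in KLF2- libraries, and the S1pr1 to Cd69 ratio is highest in KLF2+ unstimulated libraries.

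The 7 genes fell into unlike patterns over the 8 libraries. Likeness was measured as the root-mean-square (RMS) difference of log2 CPM, each gene centred on its own mean, over 8 libraries, and is a description, since libraries share depth and background. S1pr4 and Rasgrp2 were the closest pair of the 7 (RMS 0.29), followed by S1pr1 and Rasgrp2 (0.42) and by Ccr7 and Cxcr4 (0.47). The farthest pair was Ccr7 and Cd55 (1.93). Neighbours were sought among 10016 genes averaging 10 CPM or more, with Gm, Rik, Mir, Snor and LOC symbols passed over. Among these the nearest to Cd55 was Klf2 (RMS 0.32), then Mmp12 and Mmp14, which encode matrix metalloproteinases. Nearest to S1pr1 was Sgk1 (0.18), a serum- and glucocorticoid-regulated kinase, then Hsd11b1 and Sidt1.

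For the other genes, the nearest were Rasa3, Sfxn3 and Acsbg1 to S1pr4, and Tnfaip2, Tob1 and Rasa3 to Rasgrp2. Rasa3 encodes a GTPase-activating protein for Ras and Rap1, and it was on both lists, at 256 and 295 CPM in KLF2+ stimulated, 687 and 836 in KLF2+ unstimulated, 178 and 284 in KLF2- stimulated and 241 and 300 in KLF2- unstimulated libraries. Tmem176b, Slc41a3 and Rogdi were nearest to Ccr7, and Capn2, Gimap5 and Sco2 to Cd69. Nearest to Cxcr4 were Tmem140, Cyren and Cxcr5, the last of which encodes the CXCL13 receptor that brings T cells to B cell follicles. Cxcr5 had 34.9 and 48.8 CPM in KLF2- stimulated libraries, against 93.5 and 78.1 CPM in KLF2- unstimulated ones.

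**Figure D4:**
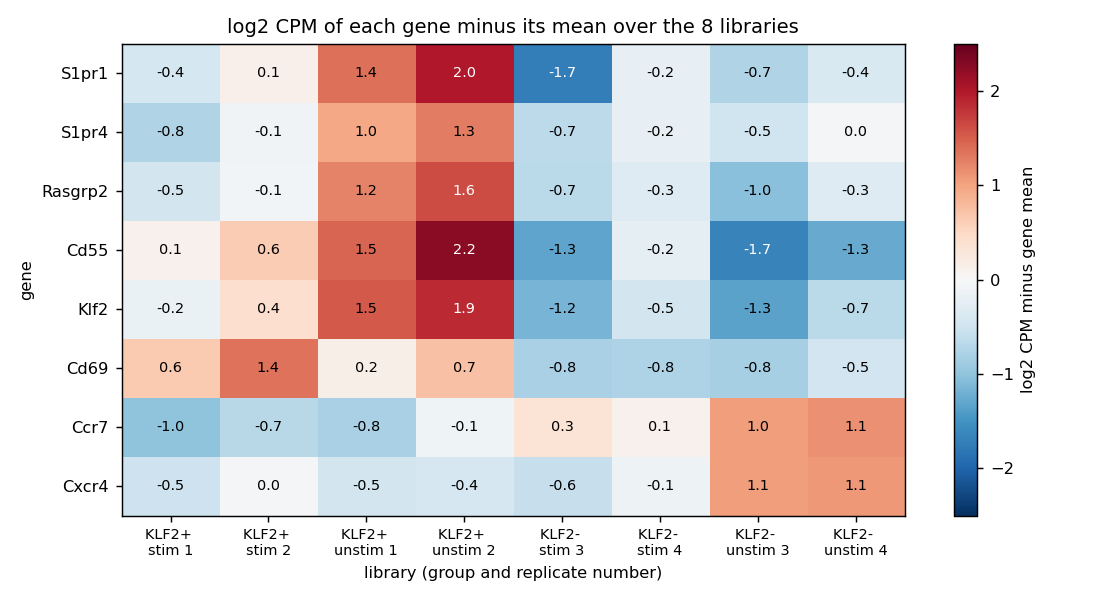
Centred log2 CPM of the 7 genes and Klf2 (rows) in the 8 libraries (columns), each gene relative to its own mean, with the value printed in each cell. S1pr1, S1pr4, Rasgrp2, Cd55 and Klf2 are highest in the KLF2+ unstimulated columns, where Cd55 reaches 2.2, and Ccr7 and Cxcr4 are highest in the KLF2- unstimulated columns.

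Lists of genes around these 7, 6 in number, were read in the same fits, without stimulation first, where 1.07% of all genes were higher and 1.25% lower in KLF2+ cells. Of 21 S1P genes, which include receptors, kinases and the lyase, 2 were higher, the receptors S1pr1 and S1pr4, and none was lower, with a list median log2 of 0.05 against -0.11 over all genes. Of 26 genes of chemoattractant receptor signalling, none was higher and 1 was lower. That gene was Rgs1, a brake on signalling from G protein-coupled receptors, with 48.6 and 73.3 CPM in KLF2+ unstimulated libraries, against 549 and 497 CPM in KLF2- unstimulated ones (log2 -3.10 ± 0.42, adjusted p = 0.00639).

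Of 22 homing receptors and ligands tested, 3 were higher and 3 lower without stimulation, with a median log2 of -0.17. Among the higher genes, Itgb7, an integrin chain of gut homing, had 1030 and 1247 CPM in KLF2+ libraries, against 376 and 389 CPM in KLF2- ones (log2 1.57 ± 0.23). Ccr10, a chemokine receptor of skin and mucosal homing, had 21.3 and 18.3 CPM in KLF2+ libraries, against 0 and 0.406 CPM in KLF2- ones. Ccr6, which binds CCL20, had 21.7 and 27.8 CPM in KLF2+ libraries, against 114 and 72.8 CPM in KLF2- ones, and was lower along with Ccr7 and Cxcr4.

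Of 25 genes of Rap1 and integrin activation, 2 were higher without stimulation, Rasgrp2 and Itgb1 (log2 1.87 ± 0.38), the integrin beta 1 chain, and 1 was lower, Rap1gap (log2 -3.45 ± 0.64), which switches Rap1 off. Rap1gap had 0.732 and 0.663 CPM in KLF2+ libraries, against 6.10 and 8.78 CPM in KLF2- ones. Of 14 complement regulators and CD55 partners tested, 3 were higher, Cd55, the complement component C3 (27.1 and 22.4 CPM in KLF2+ libraries, against 1.39 and 3.04 CPM in KLF2- ones) and Adgre5, which encodes CD97 (log2 1.90 ± 0.29), and none was lower. Adgre5 had 818 and 987 CPM in KLF2+ libraries, against 217 and 267 CPM in KLF2- ones. Of 19 genes of the KLF2 and FOXO1 circuit, 2 were higher, Klf2 and Il7r, the interleukin 7 receptor chain (log2 1.70 ± 0.28), and none was lower. The myeloid marker sums given above moved with this comparison, and their part in these genes, C3 among them, was not tested. With abundant-gene scaling, no S1P gene passed, 4 homing genes were higher and 3 lower, the Rap1 list had 1 higher and 1 lower, and the complement list had 3 higher. Itgb1 was called in 8 of the 16 alternatives run.

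In the KLF2+ response, where 19.7% of all genes were higher and 17.4% lower, 5 of the 21 S1P genes fell and none rose. Besides the receptors these included Plpp3, a lipid phosphatase (log2 -2.25 ± 0.53), and Sgpl1, the S1P lyase (-0.74 ± 0.22). Plpp3 was low, at 0.604 and 1.00 CPM in stimulated KLF2+ libraries, against 3.60 and 4.24 CPM in unstimulated ones. The part of background in its values was not tested. Of 14 complement genes, 8 fell and none rose, with a median log2 of -1.48 against -0.25 over all genes, led by the anaphylatoxin receptors C5ar1 (-3.63 ± 0.39) and C3ar1 (-2.78 ± 0.39), which myeloid cells carry. C5ar1 was low, at 0.982 and 1.13 CPM in stimulated KLF2+ libraries, against 12.8 and 13.7 CPM in unstimulated ones. In KLF2- libraries, where the myeloid marker sum was lower, C5ar1 had 11.5 and 10.5 CPM without stimulation and 16.6 and 23.5 CPM with it. The drop in the myeloid marker sum of KLF2+ cells given above ran alongside the fall. Its part, and that of background, in these values was not tested. Of the 19 KLF2 and FOXO1 genes, 6 fell, with Klf3 (-1.80 ± 0.23) and Il7r (-2.17 ± 0.28) among them, and 2 rose, including Klf10 (1.37 ± 0.22), a factor induced by TGF-beta.

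Of 26 chemoattractant signalling genes, 5 rose with stimulation in KLF2+ cells and 2 fell. Rgs1 had 356 and 270 CPM in KLF2+ stimulated libraries, against 48.6 and 73.3 CPM in KLF2+ unstimulated ones (log2 2.36 ± 0.40), and Rgs16, another brake on these receptors, rose by log2 3.16 ± 0.37. Of 22 homing genes, 5 fell, Itga4 (-1.73 ± 0.26), the integrin alpha 4 chain, among them, and 2 rose, including Ccr4 (1.87 ± 0.47), a chemokine receptor of skin homing. Of 25 Rap1 and integrin genes, 5 fell and 4 rose, with Fermt3 (1.25 ± 0.22), the integrin activator kindlin-3, among those that rose. With abundant-gene scaling the lower calls were 8 S1P, 9 complement, 12 homing and 11 Rap1 genes, and over all genes they rose as well, to 6111 of 19146, against 3325 with TMM over all genes. In KLF2- cells no gene of any of these 6 lists passed for stimulated against unstimulated.

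Between the stimulated populations, the 21 S1P genes had 9 higher and 7 lower in KLF2+ cells, but 0 higher and 10 lower with abundant-gene scaling. The 26 chemoattractant signalling genes had 17 higher and 0 lower, against 6 higher and 7 lower under that scaling, and the 22 homing genes 8 higher and 7 lower, against 2 higher and 12 lower. Some genes had the same direction in all 16 alternatives, and examples were chosen after their values were seen. Lower in stimulated KLF2+ cells were Plpp3 (log2 -2.99 ± 0.55), Ccr6 (-2.52 ± 0.34) and C5ar1 (-4.22 ± 0.40). Higher were Coro1a (2.02 ± 0.31), an actin regulator of T cell migration, and Fermt3 (2.08 ± 0.23). Plpp3 was low here too, at 0.604 and 1.00 CPM in KLF2+ libraries, against 6.51 and 6.54 CPM in KLF2- ones. C5ar1 was low in KLF2+ libraries as well, at 0.982 and 1.13 CPM, against 16.6 and 23.5 CPM in KLF2- ones. The part of background in both genes was not tested.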

How the data were processed

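HOMER counted the reads over RefSeq exons of mm10 without depth adjustment, per the file headers, which gave the deposited estimated counts in steps of 0.5, and the authors also deposited TPM for the same libraries, summing to between 503794 and 523430. STAR 2.7.9, HOMER 4.11, SAMtools and DESeq2 are named per the submitters' processing notes. How reads were filtered or assigned by strand is not given in the sources used here. Titles name polyA RNA and the kit is a stranded pico kit.

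Here the estimated counts were rounded and fitted for all 8 libraries in edgeR 4.0.16 (R 4.3.3), with filterByExpr, TMM, 1 coefficient per group, 4 residual degrees of freedom, quasi-likelihood F tests and Benjamini-Hochberg adjustment over 19146 genes. Called means adjusted p under 0.05. SE is the log2 fold change over the square root of F. The fit was tested on simulated data with as many genes raised as lowered in 1 group. That simulation held no background that differed between libraries, so it does not bear on the choice of scaling. Background was the read density over 1471 olfactory and vomeronasal genes. Alternatives were DESeq2 1.42.0, other scalings and filters, limma 3.58.1 on log2(TPM + 1), a replicate block and leaving out each library.

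Genes named were the 7, up to 4 called genes of smallest p per list and comparison, and the 3 nearest in pattern. Members and lists were chosen with earlier results of these data known. Likeness used log2(CPM + 0.5). Some genes that this rule would name are not reported here.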

Additional observations from a re-analysis of the deposited data

Results flagged for a closer look

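For 4 of the 7 genes the response to stimulation differed between the sorted populations by the test of the difference itself, the interaction term of the edgeR fit over all genes. Across all genes tested, 35.8% passed the same test, 20.3% higher and 15.5% lower. The log2 response of KLF2+ cells minus that of KLF2- cells was -2.33 for Cd55, -1.86 for Rasgrp2 and -1.35 for S1pr4, whose RNA fell in KLF2+ cells. It was 1.62 for Cxcr4, which was lower in both stimulated than in both unstimulated KLF2- libraries and in CPM overlapped in KLF2+ cells. In TPM, Cxcr4 was lower with stimulation in KLF2+ cells too, at 5.81 and 8.06, against 11.3 and 8.48 without it. The Cxcr4 difference was not called with abundant-gene scaling, after background correction or in the 3 TPM fits, where it was as low as 0.54. The 3 negative differences kept their sign in the 16 alternatives run and were called in 12 for Cd55, 13 for Rasgrp2 and 10 for S1pr4, while Cxcr4 was called in 7. None of the 4 was called without KLF2+ unstimulated 1, KLF2- unstimulated 3 or KLF2- unstimulated 4, while Cxcr4 and Rasgrp2 were called without KLF2- stimulated 4, the shallowest library, and all 4 without KLF2- stimulated 3. Groups of 2 libraries are too small to single out a library within a group by Dixon's criterion.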

How the results depend on the processing

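Of 574 alternative values for the 7 genes, 424 kept their sign and their side of the threshold, 60 lost a call, 22 gained one and 68 changed sign. No sign changed for KLF2+ against KLF2- without stimulation. Where 1 library was left out, the lone library of its group was assumed to vary like the others. The cause of each change below was not tested. With 2 libraries a group and 2987038 exon reads in the shallowest, small differences were not detectable.

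Leaving out 1 library in turn, the number of the 7 genes called was 0 to 7 for KLF2+ against KLF2- unstimulated, 2 to 4 for stimulated, 2 to 4 for the KLF2+ response, 0 to 0 for the KLF2- response and 0 to 5 for the difference between responses. For the KLF2- response DESeq2 and the replicate block called 1 gene, Cxcr4. With the replicate block, 5 genes were called in the KLF2+ response, Cd69 as higher besides the 4, and 5 in the difference, S1pr1 besides the 4. Deviations of same-numbered libraries correlated at 0.556 in KLF2+ and 0.0872 in KLF2- cells. KLF2+ and KLF2- share no number, so the numbers could pair libraries only within a population, and the block was kept as an alternative. Over all genes, the block gave 4674 higher and 6177 lower in the KLF2+ response, against 3771 and 3325 without it. In the difference it gave 5037 and 5820, against 3890 and 2965.

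Sign changes are given in the order abundant-gene scaling, background correction, log2(TPM + 1), log2(TPM + 0.1) and log2(TPM + 1) without a filter. For stimulated KLF2+ against KLF2- they were -0.58, -0.70, -0.62, -0.62 and -0.62 for S1pr1, -1.15, -1.17, -1.35, -1.42 and -1.35 for S1pr4, -1.12, -1.01, -1.25, -1.35 and -1.25 for Cxcr4, and -0.94, -0.81, -1.09, -1.19 and -1.09 for Rasgrp2. For Cd55 they were -0.10 with abundant-gene scaling and -0.24, -0.26 and -0.24 in TPM. With only the 2 groups fitted, S1pr4 was -0.15 and Cxcr4 -0.12. For the KLF2+ response Cxcr4 was -0.33, -0.21, -0.46, -0.51 and -0.46, and Cd69 was -0.12, -0.13 and -0.12 in TPM. For the KLF2- response S1pr1 was 0.26 and 0.33 with the first 2, S1pr4 0.28, 0.28, 0.22, 0.22 and 0.22, and Cd69 0.29, 0.25, 0.25, 0.26 and 0.25. For the difference between responses Ccr7 was -0.46, -0.48, -0.59, -0.59 and -0.59, and Cd69 -0.21, -0.13, -0.37, -0.39 and -0.37.

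Where leaving out 1 library changed a sign, the log2 range over libraries left out was -0.30 to 0.39 for S1pr4 and -0.15 to 0.34 for Cxcr4 between the stimulated populations. In the KLF2+ response it was -0.76 to 0.012 for Ccr7 and -0.078 to 0.42 for Cxcr4. In the KLF2- response it was -1.18 to 0.29 for S1pr1, -0.42 to 0.051 for S1pr4, -0.33 to 0.028 for Cd69 and -0.21 to 0.55 for Rasgrp2.

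Counts of all genes called also moved. With abundant-gene scaling, 2316 were higher and 11184 lower between the stimulated populations, against 6799 and 7597 with TMM over all genes, and 2144 were higher and 6111 lower in the KLF2+ response, against 3771 and 3325. For KLF2+ against KLF2- unstimulated, DESeq2 called 634 higher and 481 lower, against 204 and 240 in edgeR. Leaving out 1 library in turn gave 11 to 1108 higher and 22 to 584 lower for that comparison, 1410 to 4501 higher and 577 to 4781 lower in the KLF2+ response, 0 to 102 higher and 0 to 54 lower in the KLF2- response, and 64 to 5054 higher and 6 to 4991 lower in the difference.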

Other observations

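Single markers of dendritic cells did not all move one way between the unstimulated populations. Flt3, a cytokine receptor of dendritic cells and progenitors, had 10.9 and 12.1 CPM in KLF2+ unstimulated libraries, against 43.9 and 60.1 CPM in KLF2- unstimulated ones (log2 -2.18 ± 0.27). Itgax, which encodes CD11c, ran the other way, with 10.1 and 11.7 CPM in KLF2+ unstimulated libraries, against 1.86 and 0.812 CPM in KLF2- ones (log2 3.03 ± 0.58).

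Of the 12 B cell markers, 2 were called higher and none lower in KLF2+ cells without stimulation, and 1 higher with abundant-gene scaling. Cd79a, called in 9 of the 16 alternatives, had 27.2 and 64.9 CPM in KLF2+ unstimulated libraries, against 1.51 and 6.95 CPM in KLF2- unstimulated ones. Ebf1, which was not called, lay the other way, with 11.2 and 5.47 CPM in KLF2+ unstimulated libraries, against 13.1 and 16.7 CPM in KLF2- unstimulated ones. The 9 CD8 T and NK cell markers summed to 138 and 185 CPM in KLF2+ unstimulated libraries, against 118 and 109 CPM in KLF2- ones, and the 11 erythroid and platelet markers to 157 and 56.5 CPM in KLF2+ unstimulated libraries, against 43.6 and 36.7 CPM in KLF2- ones. Foxp3, whose reporter was used to leave out regulatory T cells, averaged 15.4 ± 1.73 CPM in KLF2+ unstimulated libraries and 12.3 ± 0.453 CPM in KLF2- unstimulated ones (SD, n = 2 each), a log2 difference of 0.32 ± 0.33 (SE) that did not pass. Between the stimulated populations it averaged 20.9 ± 0.608 CPM in KLF2+ libraries and 6.86 ± 2.31 CPM in KLF2- ones (SD, n = 2 each) and was called higher in KLF2+ cells (log2 1.58 ± 0.34, adjusted p = 0.00265 in edgeR), with overlapping TPM values.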
